A study of Mus musculus with 4 samples.

Results

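miR-193, miR-193b and miR-365 are small regulatory RNAs made from 2 duplicated gene pairs of the mouse genome. They were followed here in developing molars as 3 of the 696 microRNA (miRNA) probes on an Agilent 1-colour array. They were taken by probe name (mmu-miR-193, mmu-miR-193b and mmu-miR-365, without the asterisk of a minor arm). They were chosen by their signals in these same arrays, for being higher late in the series, so those values are given as a description. Mandibular molar tooth germs came from untreated ICR embryos, an outbred laboratory mouse strain, at embryonic day 11 (E11), 12 (E12), 14 (E14) and 16 (E16). Each stage has 1 array, made from 100 ng of total RNA labelled with Cy3. The sources used here do not say how many embryos or litters went into an RNA sample, and no replicate exists, so no p-value or spread between animals can be given for any difference.

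A miRNA is cut from the stem of a hairpin transcript and loaded into the Argonaute complex, where bases 2 to 8, the seed, select messenger RNAs for repression. miRNAs with the same seed share most of their predicted targets. The miR-193b and miR-365 pair is best known in the mouse from brown fat, where it was described as promoting brown adipocyte and limiting muscle differentiation, although brown fat was later described as forming normally in mice without the pair. In human cells miR-193b was described as repressing the urokinase gene PLAU and the cyclin D1 gene CCND1. In chicken growth plate chondrocytes miR-365 was described as acting on the histone deacetylase gene HDAC4.

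The mature sequences are shown first, because they set what each probe can tell apart. The files give probe names only. The older names were matched to current ones by their gene synonyms and by the naming of the main arm, so that miR-193 is taken as miR-193a-3p. Sequences are from RefSeq on build GRCm38.p6, written 5′ to 3′ with the seed in capitals.
mmu-miR-193a-3p: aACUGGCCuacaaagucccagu
mmu-miR-193b-3p: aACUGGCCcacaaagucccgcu
mmu-miR-365-3p: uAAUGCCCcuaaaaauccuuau
miR-193a-3p and miR-193b-3p have the same seed, ACUGGCC, and are identical at 19 of 22 positions. Counted from the 5′ end, with the miR-193a-3p base first, they differ by U9C, A20G and G21C. Among 1679 mature mouse miRNA names in the RefSeq table, these 2 alone hold that seed. The miR-365-3p seed, AAUGCCC, belongs to no other name in the table.

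The hairpins show how the 3 miRNAs are arranged, with the mature 3′ arm in capitals. Mir193a lies at chr11:79711969-79712034 and Mir365-2 at chr11:79726400-79726511. Mir193b lies at chr16:13449523-13449601 and Mir365-1 at chr16:13453840-13453926. All 4 are on the plus strand of GRCm38.p6.
Mir193a: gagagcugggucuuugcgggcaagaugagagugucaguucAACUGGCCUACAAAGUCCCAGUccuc
Mir365-2: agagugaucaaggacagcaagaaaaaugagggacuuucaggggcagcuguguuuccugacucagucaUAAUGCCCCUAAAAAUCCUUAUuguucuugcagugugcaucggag
Mir193b: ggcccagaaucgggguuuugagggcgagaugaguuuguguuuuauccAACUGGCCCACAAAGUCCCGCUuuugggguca
Mir365-1: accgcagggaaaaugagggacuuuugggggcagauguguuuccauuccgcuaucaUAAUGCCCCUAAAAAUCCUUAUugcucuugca
On each chromosome a miR-193 hairpin comes first and a miR-365 hairpin follows on the same strand. The 2 hairpins are 14365 bases apart on chromosome 11 and 4238 bases apart on chromosome 16. Both miR-365 hairpins give the same mature 3′ arm, so the miR-365 probe reads both loci together, while miR-193 belongs to chromosome 11 alone and miR-193b to chromosome 16 alone. In the RefSeq table the chromosome 16 pair overlaps, or has between its hairpins, the long non-coding genes Gm32817 and Gm53058.

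The arrays detected between 209 and 250 miRNAs per stage, and 197 at every stage. The stated error of a detected signal had a median of 9.04% to 9.55%, and covers measurement on 1 array only. An undetected probe is written as 0.1 and has no measured level. Differences between stages are later minus earlier on a log2 scale, after each array was set to the 75th percentile of the 197 miRNAs detected throughout. That percentile was 7.97, 8.63, 9.04 and 9.40 (log2) at E11, E12, E14 and E16, so the deposited, unscaled signals lean upward with age. This is why 6 scalings are compared below. With no scaling, the median of all miRNAs lies at 0.69 for E16 versus E11, and with the main scaling at -0.74. The tissue's markers were present: epithelial miR-205 and mesenchymal miR-199a-3p were detected at all stages. In RNA from whole tooth germs, a change in the share of cells that hold a miRNA and a change in the amount per cell cannot be told apart.

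miR-193b was barely above detection at E11, gave a clear signal at E12 and, with the main scaling, stayed near that level. Its deposited signal was 11.9 ± 3.6 at E11, 117.0 ± 10.6 at E12, 144.4 ± 11.5 at E14 and 179.4 ± 14.2 at E16 (± is the array's stated error). E11 stands apart from the 3 later stages, which lie close together. On the scaled log2 scale the levels were -4.39 ± 0.44 at E11, -1.76 ± 0.13 at E12, -1.87 ± 0.12 at E14 and -1.91 ± 0.11 at E16. The order of the later 3 is not settled: E14 minus E12 was -0.11 ± 0.17 and E16 minus E14 was -0.04 ± 0.16, both within 1 combined error of 0.

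miR-365 was higher at each later stage. Its deposited signal was 46.1 ± 5.8 at E11, 159.1 ± 13.0 at E12, 247.6 ± 18.3 at E14 and 410.7 ± 29.8 at E16. On the scaled log2 scale the levels were -2.44 ± 0.18, -1.32 ± 0.12, -1.09 ± 0.11 and -0.72 ± 0.10 in the same order of stages. The largest step was the first, and the middle step, 0.23 ± 0.16, was 1.44 times its combined error. All 3 steps of miR-365 were above 0 under each of the 6 scalings. With the main scaling 19 of 197 miRNAs (9.64%) were higher at every step, miR-365 among them and miR-193b not. With no scaling 59 (29.9%) were, including both.

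miR-193 was detected on the E16 array only, with a signal of 77.7 ± 8.8, which is 8.84 times its error. It was written as undetected at E11, E12 and E14. The probe for its other arm, miR-193*, was undetected at all 4 stages. At E12 and E14 the miR-193b probe gave signals of 117.0 and 144.4 while the miR-193 probe, whose target differs at 3 bases, stayed undetected. The miR-193b signal was then 1.24-fold higher at E16 than at E14 as deposited. Whether the miR-193 probe also reads miR-193b was not tested. miR-193 was 1 of 13 miRNAs detected at E16 alone.

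**Figure D1:**
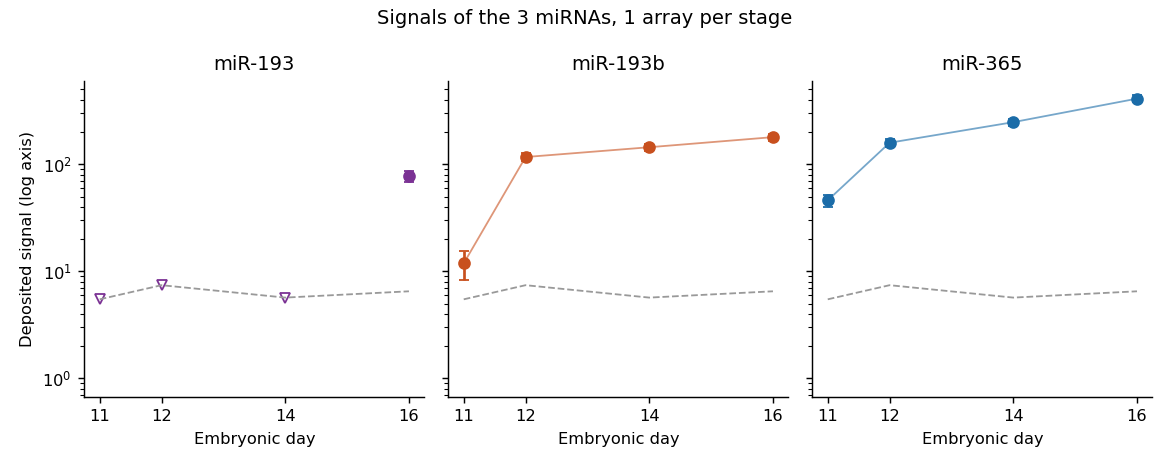
Deposited signal (log axis) of miR-193, miR-193b and miR-365 against embryonic day, 1 array per stage. Filled points are detected signals with the array's stated error, open triangles mark undetected stages drawn at the lowest detected signal of that array, and the dashed line joins those lowest signals. miR-193b at E11 (11.9) lies near the dashed line and miR-193 leaves it only at E16 (77.7).

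The comparison of E16 with E11 asks how the end of the series differs from its start. miR-193b was 5.58-fold higher at E16 (log2 2.48 ± 0.45), with values between 5.45-fold and 15.1-fold over the 6 scalings. miR-365 was 3.30-fold higher (1.72 ± 0.21), between 3.22-fold and 8.92-fold over the scalings. The background was 28 of 205 miRNAs (13.7%) at least 2-fold higher at E16. Both of the members that could be compared are among those 28, which is what they were picked for. Ordered by size, miR-193b was in place 5, between miR-22 (2.53 ± 0.34) and miR-152 (2.43 ± 0.43). miR-365 was in place 12, between the epithelial miR-203 (1.88 ± 0.18) and miR-143 (1.67 ± 0.39), a miRNA of smooth muscle and other mesenchyme. Next beyond these were miR-27a (2.86 ± 0.22) and miR-200a (2.28 ± 0.23) around miR-193b, and miR-135b (2.02 ± 0.46) and let-7d (1.66 ± 0.16) around miR-365. The neighbours of miR-193b lie within its error, as do miR-203, miR-143 and let-7d for miR-365, so the exact places carry little weight.

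miR-193 has only a bound in that comparison, since its E11 level was not measured. Against the lowest detected signal of the E11 array it was at least 5.24-fold higher at E16, and against the 5th percentile of that array's detected signals at least 3.10-fold. Over the scalings the first bound ran between 3.86-fold and 14.2-fold. The bound is nominal, since probes differ in error and a noisier one may go undetected at a higher signal. Of 487 miRNAs undetected at E11, 45 (9.24%) were detected at E16.

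With the main scaling, almost all of the difference in miR-193b was already there at E12. From E11 to E12 it was 6.19-fold higher (2.63 ± 0.46), the largest of 201 differences, with let-7b (2.62 ± 0.27) and miR-31 (2.33 ± 0.36) next. The gap to let-7b is far smaller than either error. miR-365 was 2.17-fold higher (1.12 ± 0.22), in place 16, between let-7d (1.12 ± 0.16) and miR-411 (1.04 ± 0.37). Beyond these stood miR-22 (1.17 ± 0.36) above and let-7a (1.03 ± 0.15) below. In this step 19 of the 201 (9.45%) were at least 2-fold higher. With the 75th percentile taken over all probes miR-365 fell short of 2-fold, at 1.91-fold, while miR-193b kept at least 5.16-fold under every scaling. miR-193 was undetected at both stages.

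The size of the E11 to E12 step rests on a dim E11 signal. miR-193b at E11 was 3.28 times its error and 2.17 times the lowest detected signal of that array, and 8 of the 209 miRNAs detected there had a lower ratio of signal to error. Raising that signal by 2 stated errors lowers the E16 versus E11 difference to 1.79, and for miR-365 to 1.40. With E12 in place of E11 as the start, miR-193b was at -0.15 ± 0.17 and miR-365 at 0.60 ± 0.16. The main scaling gave the lowest of the 6 values for miR-193b. The highest was 0.62, with no scaling, where the median of all miRNAs was 0.43. In that comparison 13 of 215 miRNAs (6.05%) were at least 2-fold higher at E16, and neither member was among them. With median scaling 38 were, and with no scaling 60, miR-365 among them at 2.13-fold and 2.58-fold. miR-193b lay at 0.19 above the median of all miRNAs there, and miR-365 at 0.94 above it. The E12 start and the E11 signals raised by 2 stated errors were chosen after the data had been seen.

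From E12 to E14 neither detected member passed 2-fold. miR-193b was at -0.11 ± 0.17, between miR-182 (-0.11 ± 0.19) and miR-17* (-0.13 ± 0.24), with let-7a (-0.09 ± 0.15) and let-7f (-0.14 ± 0.16) next. miR-365 was at 0.23 ± 0.16, between the erythroid miR-451 (0.25 ± 0.15) and miR-30a (0.21 ± 0.14), with miR-205 (0.27 ± 0.15) and let-7d (0.20 ± 0.15) next. The median of all 212 miRNAs was -0.40, so both lie above it, by 0.29 and 0.63. In all, 27 (12.7%) were at least 2-fold higher at E14. The sign of miR-193b turned with median scaling (0.13) and with no scaling (0.30), while the sign of miR-365 held under the 6 scalings.

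From E14 to E16 miR-193 appeared, miR-365 was higher by a little and miR-193b was level with the main scaling. miR-193 was at least 10.7-fold higher at E16 against the lowest detected signal of the E14 array. Against that array's 5th percentile of detected signals the bound falls to 5.07-fold. Of 447 miRNAs undetected at E14, 19 (4.25%) were detected at E16. miR-365 was 1.30-fold higher (0.37 ± 0.15), between miR-30a (0.39 ± 0.13) and miR-106b (0.36 ± 0.15), with miR-676 (0.39 ± 0.26) and the hypoxia-induced miR-210 (0.36 ± 0.16) next. Quantile normalization brought it to 0.11, within its error of 0. miR-193b was at -0.04 ± 0.16, with miR-17* (-0.03 ± 0.20), miR-212 (-0.03 ± 0.20), miR-148b (-0.06 ± 0.27) and miR-331-3p (-0.07 ± 0.16) around it. The median of all 231 miRNAs was -0.06, and 17 (7.36%) were at least 2-fold higher at E16.

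**Figure D2:**
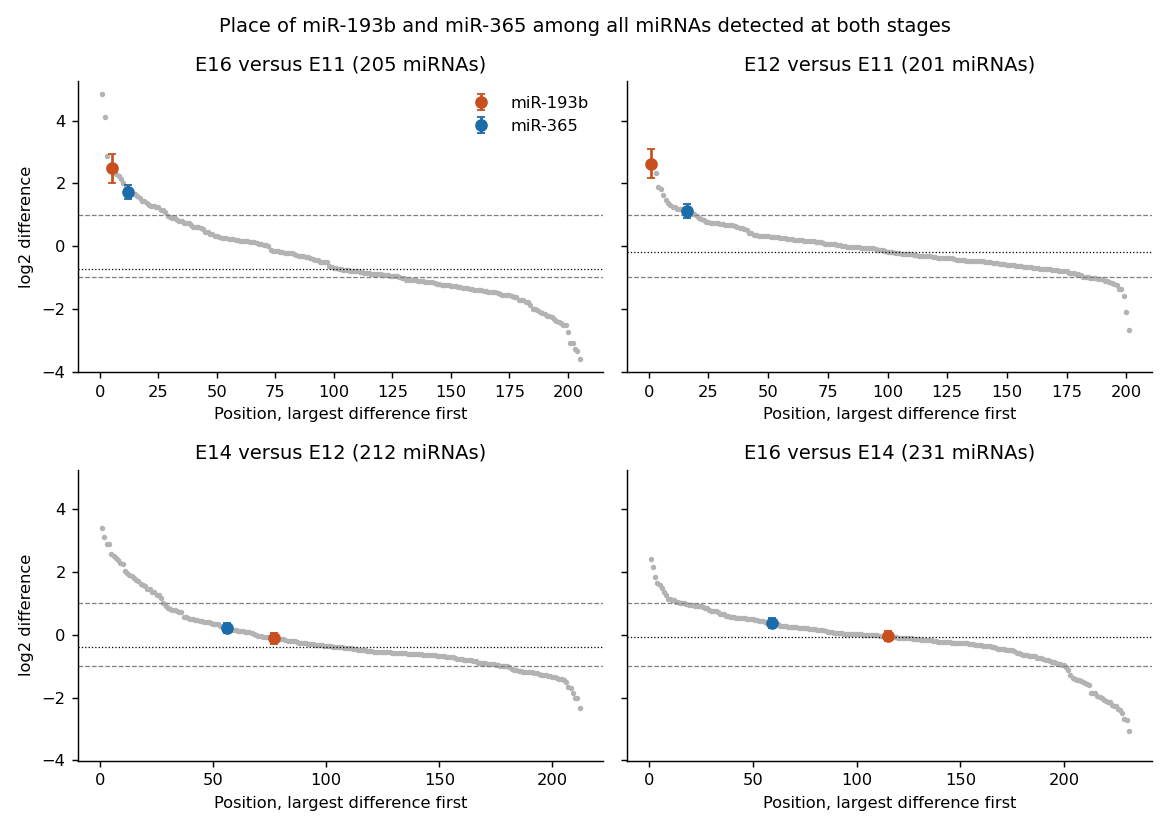
log2 difference (later minus earlier, main scaling) of every miRNA detected at both stages, ordered from the largest, for 4 comparisons; dashed lines mark 2-fold and the dotted line the median. Coloured points with combined measurement errors are miR-193b and miR-365, which stand near the top in the 2 comparisons with E11. In E14 versus E12 and E16 versus E14, miR-193b is in the middle range (places 77 of 212 and 115 of 231). miR-365 stands higher there (places 56 and 59).

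**Figure D3:**
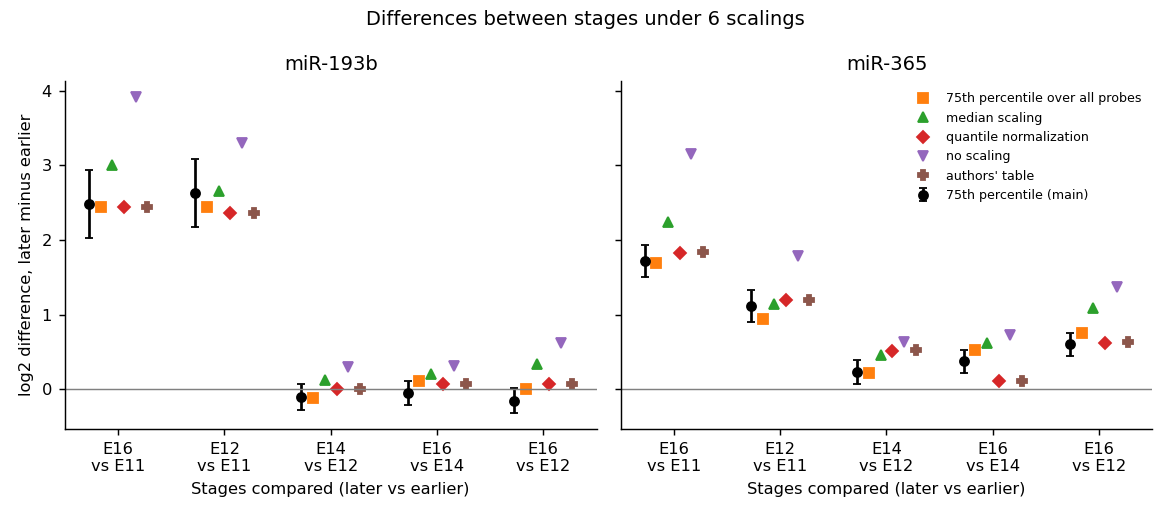
log2 difference of miR-193b and miR-365 in 5 comparisons under 6 scalings; bars on the black points are combined measurement errors. Comparisons with E11 lie above 0 under every scaling (2.37 or more for miR-193b, 0.94 or more for miR-365), and the later steps of miR-193b lie on both sides of 0.

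The miR-193b and miR-365 signals differed in how much they changed from E11 to E12, by 2.98 combined measurement errors. The ratio of the miR-193b signal to the miR-365 signal on 1 array does not depend on a constant scaling of that array, so its change between stages shows unequal change. Levels of the 2 probes are not compared, since probes differ in affinity. As log2 the ratio was -1.95 ± 0.48 at E11, -0.44 ± 0.18 at E12, -0.78 ± 0.16 at E14 and -1.19 ± 0.15 at E16. It was highest at E12 and lower at each stage after that. At E12 it was higher than at E11 by 1.51 ± 0.51, or 2.98 combined errors, which rests on the dim E11 signal of miR-193b. At E16 it was lower than at E12, by -0.75 ± 0.23, or 3.21 combined errors, in a comparison chosen after the data had been seen. The single later steps were smaller, -0.33 ± 0.24 for E14 versus E12 and -0.42 ± 0.22 for E16 versus E14, and neither reached 2 combined errors. From E11 to E16 the change was 0.76 ± 0.50, 1.52 combined errors. Quantile normalization, which does not shift all signals equally, kept all 5 signs but left E16 versus E14 at -0.03. With it the change was 1.16 for E12 versus E11 and -0.55 for E16 versus E12. It was -0.52 for E14 versus E12 and 0.62 for E16 versus E11. Since miR-365 is read from both loci and miR-193b from 1, the ratio sets a miRNA of chromosome 16 beside a miRNA of both chromosomes. The part of either locus in the miR-365 signal was not measured.

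**Figure D4:**
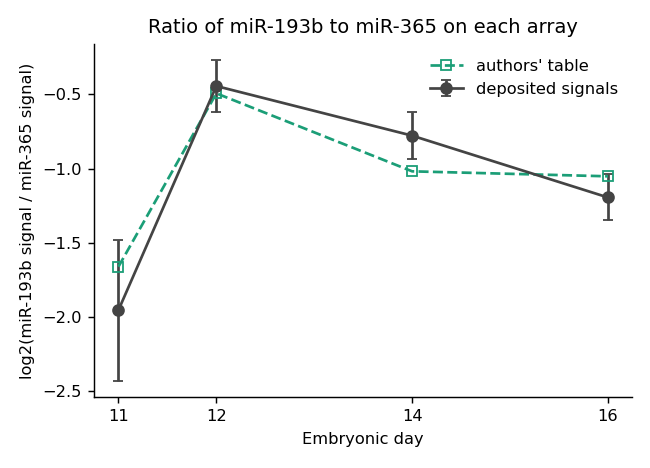
log2 ratio of the miR-193b to the miR-365 signal on each array against embryonic day; filled points are deposited signals with combined measurement errors, open squares the authors' table. The ratio is highest at E12 (-0.44) and lower at E16 (-1.19) and at E11 (-1.95).

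The courses most like each member were sought among the 197 miRNAs detected throughout, by the root mean square distance between log2 courses centred on their own mean over the 4 stages. All courses come from the same 4 arrays, and the likeness is a description. The closest to miR-365 was let-7d, of the let-7 family of differentiation-associated miRNAs, at a distance of 0.025. The next were miR-143 (0.116), miR-23a (0.133), miR-378 (0.134) and let-7f (0.140). The let-7d course and the miR-365 course differ, after centring, by less than the error of miR-365 at every stage. miR-193b had no comparably close course, but its own stated error at E11 was 0.44 on the log2 scale. The nearest were let-7i (0.396), miR-152 (0.414), let-7c (0.496), miR-378 (0.498), an intronic miRNA of the metabolic coactivator gene Ppargc1b, and miR-135b (0.529). miR-365, its neighbour on chromosome 16, was in place 6 at 0.564, while miR-193b stood at place 39 of 196 from miR-365. All 5 courses closest to miR-193b were below it at E12 and above it at E11, after centring.

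**Figure D5:**
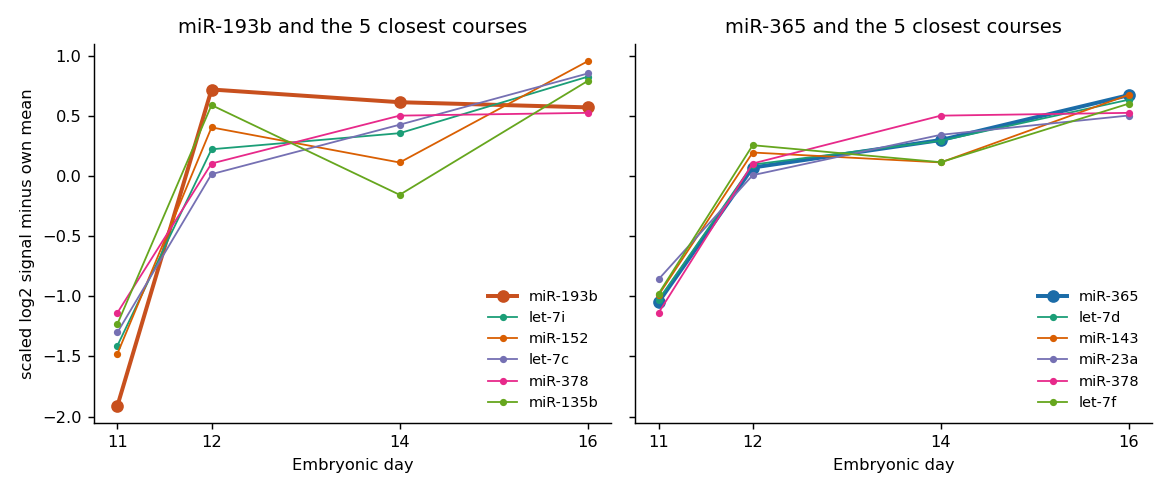
Scaled log2 signal minus each miRNA's own mean over the stages, against embryonic day, for miR-193b and miR-365 (thick lines) and the 5 closest courses of each. The let-7d course covers that of miR-365 (distance 0.025), and miR-193b is lower at E11 and higher at E12 than its 5 neighbours.

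For miR-193 the corresponding group is the miRNAs detected at E16 alone. Among the others were miR-142-3p, a leukocyte miRNA (64.4 ± 7.5), and miR-29c, known for repressing collagen and other matrix genes (45.3 ± 6.7). miR-136* (20.9 ± 4.6), miR-326 (19.9 ± 4.6) and miR-146a, an inflammation-linked miRNA (17.8 ± 4.5), were also among them. These signals are as deposited on that 1 array and give no order of abundance, since probes differ in affinity. The erythroid marker miR-144 (15.3 ± 4.4) was in this group too, while miR-451, another erythroid marker, was detected at all stages. miR-193 and miR-142-3p were both first detected at E16, while another leukocyte marker, miR-223, was detected from E12. Of the 4 leukocyte markers, miR-223, miR-142-3p, miR-155 and miR-150, 0 were detected at E11, 1 at E12 and at E14, and 2 at E16, with summed signals of 0, 17.6, 32.6 and 146.8. miR-155 and miR-150 were undetected throughout. The part of leukocytes or erythroid cells in the miR-193 signal was not tested.

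Other miRNAs known from brown or beige fat give a setting for the pair. Of 18 listed, 13 were detected at some stage and 12 at both E11 and E16. Of those 12, 4 were at least 2-fold higher at E16 and 1 was lower, with a median of 0.34. Over all 205 miRNAs 28 (13.7%) were higher and 77 (37.6%) lower, with a median of -0.74. With no scaling 10 of the 12 were higher and 0 lower, with a median of 1.77 beside 0.69 for all. Over all 205 miRNAs 92 were then higher and 9 lower. The 4 highest in mean signal were miR-26a (0.59 ± 0.15), miR-106b (-0.30 ± 0.15), miR-93 (-1.13 ± 0.17) and miR-30c (-0.01 ± 0.17). The 4 past 2-fold, named after their values were seen, were miR-27a (2.86 ± 0.22), miR-203 (1.88 ± 0.18), miR-378 (1.66 ± 0.37) and miR-27b (1.26 ± 0.17). miR-27a and miR-27b are known in the mouse as brakes on adipocyte formation. miR-133a and miR-133b, which restrain the brown fat regulator Prdm16, were undetected at all stages, as were miR-155, miR-196a and miR-328. In the first step 2 of 12 were at least 2-fold higher (median 0.31 beside -0.20), against 9.45% of all miRNAs. From E12 to E14 it was 1 of 13 (-0.31 beside -0.40), against 12.7%. From E14 to E16 it was 1 of 13 (0.36 beside -0.06), against 7.36%. With no scaling the counts were 6 of 12, 1 of 13 and 3 of 13. Over all miRNAs they were then 46 of 201, 36 of 212 and 36 of 231.

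A second setting is miRNAs that, like miR-365, come from 2 genomic copies or, like miR-193 and miR-193b, from paralogous pairs. Of 24 listed, 16 were detected at both E11 and E16, with 3 at least 2-fold higher, 3 lower and a median of 0.04, beside 13.7%, 37.6% and -0.74 for all miRNAs. With no scaling 10 were higher, 0 lower and the median was 1.47 (0.69 for all). Over all 205 miRNAs 92 were then higher and 9 lower. The 4 of highest mean signal were miR-125b-5p (-0.86 ± 0.17), miR-199a-3p (-1.25 ± 0.15), miR-199a-5p (-0.77 ± 0.16) and miR-24 (0.75 ± 0.15). The 3 higher ones all belong to the miR-23 and miR-27 clusters: miR-27a, miR-23a (1.36 ± 0.16) and miR-27b. In the first step 1 of 16 was at least 2-fold higher (median 0.21 beside -0.20 for all), against 9.45% of all miRNAs. From E12 to E14 it was 0 of 16 (-0.24 beside -0.40), against 12.7%, and from E14 to E16 0 of 16 (0.13 beside -0.06), against 7.36%. With no scaling the counts were 7, 0 and 3 of 16, beside 46 of 201, 36 of 212 and 36 of 231 for all. Both lists were chosen with earlier results of these data known.

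Markers of some cell types moved with the stages too, and their part in the courses of the members was not tested. The summed deposited signal of 7 epithelial markers was 1795, 3382, 5363 and 9364 at E11, E12, E14 and E16, with 6 detected at E11 and all 7 later. That of 5 mesenchymal markers was 9312, 14121, 8686 and 9519, with 4 detected at every stage and miR-145 at none. These sums are unscaled. With the main scaling the median for E16 versus E11 was 1.35 over 6 epithelial markers, 4 of them at least 2-fold higher. It was -1.01 over 4 mesenchymal markers, 1 of them at least 2-fold higher and 2 lower. Unscaled, erythroid markers summed to 404, 422, 665 and 1230, with miR-486 undetected, and the 2 cartilage markers to 87.3, 141.2, 126.7 and 266.8. Neural markers gave 14.6, 98.8, 35.6 and 87.7, from miR-128 and, at E12 and E16 only, miR-137, with miR-124 and miR-9 undetected. With the main scaling none of these 3 classes held a marker past 2-fold for E16 versus E11. The values were 0.15 for erythroid miR-451, 0.02 for neural miR-128 and a median of 0.30 for the 2 cartilage markers. The median of all miRNAs was -0.74. None of 7 muscle markers, miR-1 and miR-206 among them, was detected at any stage.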

How the data were processed

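Each array's deposited values are, per the file headers, an intensity per probe (Agilent's total gene signal, linear, unscaled between arrays), its error and a detection flag. Signal extraction and background handling are steps not given in the sources used here. The authors' value table of the series, also intensity on a linear scale and without centring, was used as an alternative. Quantile normalizing the deposited signals of all 718 features, controls included, gave all its detected values within 0.1%; the quantile alternative in the text is over miRNA probes only and differs slightly from that table.

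Control features (22 of 718) were left out. Log2 signals of detected miRNAs were set to each array's 75th percentile over the 197 detected throughout, with Python 3.11.15, numpy 2.4.6 and pandas 2.3.3. The code was tested on simulated data. Errors of differences combine the stated errors of both arrays. The size rule was 2-fold, not a test. Named were the members, the 5 closest courses (same detected stages for miR-193), the 2 miRNAs on each side in each order of differences and the 4 list members of highest mean signal. Members and lists were chosen with earlier results of these data known. Precision is limited by having 1 array per stage.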

Additional observations from a re-analysis of the deposited data

How the results depend on the processing

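Each stage has 1 array, so no difference was tested and the errors leave out differences between animals. No paired analysis was possible because each stage has 1 sample. The signs of miR-193b and miR-365 for E16 versus E11 and for E12 versus E11 held under all 6 scalings, and so did the signs of their ratio changes where it was recomputed (quantile normalization and the authors' table). Of the 138 values under alternatives, 68 stayed within 1 combined error (counts within 1.5 times), 62 moved further and 8 turned sign. These are not independent checks, since quantile normalization and the authors' table nearly coincide. The E12 start, also counted, is another comparison, and other size rules change the counts by definition. The cause of the moves was not tested, except that a constant scaling shifts all differences alike. miR-193b at E11 was 3.28 times its error, which limits every comparison with that stage.

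For E16 versus E11, median scaling gave 2.998 for miR-193b and 2.24 for miR-365, and no scaling 3.92 and 3.16. With E12 as the earlier stage the values were -0.15 and 0.60, and with the E11 signals raised by 2 stated errors 1.79 and 1.40. For E12 versus E11, no scaling gave 3.30 for miR-193b and 1.79 for miR-365. For E14 versus E12, miR-193b turned to 0.13 with median scaling and 0.30 with no scaling. miR-365 was at 0.47 with median scaling, 0.52 with quantile normalization, 0.64 with no scaling and 0.53 in the authors' table. For E16 versus E14, miR-193b turned to 0.12 with the 75th percentile over all probes, 0.21 with median scaling, 0.078 with quantile normalization and in the authors' table, and 0.31 with no scaling. miR-365 was at 0.53, 0.62, 0.11 (quantile normalization), 0.11 (authors' table) and 0.73 under the same settings. The ratio change for E16 versus E14 was -0.031 with quantile normalization and -0.033 in the authors' table.

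The log2 bound of miR-193 at E16 was 3.41 against E14, 2.62 against E12 and 2.39 against E11. It was 3.67, 3.11 and 2.91 with median scaling, and 3.77, 3.39 and 3.82 with no scaling. Taken from the 5th percentile of detected signals it was 2.34, 1.89 and 1.63. Quantile normalization and the authors' table both gave 4.16 against E14 and 1.95 against E11. By Pearson correlation, 2 of the 5 courses closest to miR-193b and 1 of the 5 closest to miR-365 were kept. Without scaling the same 5 were found for each, by construction.

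Counts of miRNAs past the size rule, the background of the members, moved as well. For E16 versus E11, 28 higher and 77 lower became 44 and 35 with median scaling, 92 and 9 with no scaling, and 15 and 30 at 3-fold. For E12 versus E11, 19 higher and 17 lower became 46 and 2 with no scaling, 39 and 52 at 1.5-fold, 6 and 2 at 3-fold, and 10 and 10 among signals at least 5 times their error. The 75th percentile over all probes gave 26 lower. For E14 versus E12, 32 lower became 18 with median scaling, 9 with no scaling, 78 at 1.5-fold and 6 at 3-fold. For E16 versus E14, 17 higher became 28 with the 75th percentile over all probes, 30 with median scaling, 36 with no scaling, 37 at 1.5-fold, 5 at 3-fold and 11 among signals at least 5 times their error. The 31 lower became 54 at 1.5-fold and 20 at 3-fold.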
